A study of Jaculus jaculus and Mus musculus with 24 samples.

Results

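Muscle from the hindfoot was compared with the flexor digitorum superficialis (FDS), a forelimb muscle that bends the digits, in newborn mice. The foot group (P0, hindfoot muscle) and the forelimb group (P0, forelimb muscle) held 3 libraries each, out of 24 libraries from mouse and jerboa at P0 and postnatal day 3 (P3). All mice carried the treatment label normal, and the labels give no strain, sex, allele or agent for any group. The features compared were all those with at least 10 reads in 3 of the 6 libraries, which left 13554 of the 17641 features in the tables. Some genes had under 10 reads in every library of a limb and so passed only through the other limb, where they are high and had to differ. Of those described, these were Aqp4, Cnmd, Col10a1, Hoxc8, Hoxc9, Hoxc10, Hoxc11, Ibsp, Nebl, Nppa, Smco1, Tbx5 and Wnt16, and their values are given as a description with no p. A counting interval printed for some of them describes a ratio of pooled reads and is no test of a difference. Such genes, described or not, remain in the counts of calls over all features and in each list, where they add no support. Of the 17641, 16096 had a read in these libraries, and 13493 of the 13554 tested features were paired with a mouse gene symbol. Foot muscle was taken from sections and the forelimb muscle was dissected, so the limb and the way of sampling cannot be told apart. The series was made to study how the jerboa loses its foot muscle, and the mouse, which keeps that muscle, gives the reference for how foot and forelimb muscle differ. No label says that the libraries stand for separate animals. Each p therefore measures the spread between these libraries, which may be technical.

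Skeletal muscle fibres contract through thick filaments of myosin and thin filaments of actin, and many filament proteins come in embryonic, neonatal, slow and fast isoforms encoded by separate genes. Around birth, limb fibres exchange embryonic and neonatal isoforms for adult ones, build the triads that release calcium, and take up the enzymes of glycogen use and fat oxidation. Myoblasts meanwhile still fuse with the growing fibres under the control of myogenic transcription factors, and nerve endings are still sorting out which fibre they keep. The identity of the limb itself is set earlier by homeobox and T-box genes, many of which stay on in muscle and its connective tissue.

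The 3 foot libraries held 24.4 M, 31.7 M and 26.0 M reads and the 3 forelimb libraries 42.3 M, 36.0 M and 44.6 M. A gene with 0 reads in a library could still be at 0.0672 to 0.123 CPM, the level of 3 reads. Across the tested features, log levels correlated at r = 0.992 to 0.997 between foot libraries, 0.996 to 0.997 between forelimb libraries and 0.959 to 0.969 between the limbs, over features that are not independent replicates. Below, a level is in CPM, a gene's reads scaled to the library's normalised size, a difference is log2 of foot over forelimb with its standard error (SE), and a gene is called higher or lower in foot where edgeR's quasi-likelihood test gave a Benjamini-Hochberg adjusted p under 0.05. That test called 7743 of the 13554 features, 57.1%. Of these 3817 were higher in foot, 28.2% of the features tested, and 3926 lower, 29.0%. Most differences were small. Tested against a change of 1.5-fold in place of 0, 675 features were higher and 1103 lower. More than 2-fold calls numbered 612 higher (4.52%) and 945 lower (6.97%), and more than 4-fold calls 111 higher (0.819%) and 182 lower (1.34%). The foot and forelimb libraries did not overlap for 8655 features (63.9%), against 9568 (70.6%) at P3, and the median difference over all tested features was 0.01. Counts for gene lists are to be read against these shares. Where a gene is given library by library, its foot and forelimb libraries did not overlap unless the text says so, and values come in the order of replicates 1, 2 and 3.

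The tissue was muscle by its defining genes in all 6 libraries, but the foot held less of their RNA. The summed level of 11 markers of the skeletal muscle fibre was 53028, 38654 and 40321 CPM in the foot and 89088, 85114 and 95397 CPM in the forelimb. The libraries did not overlap, and foot replicate 1 stood above the other foot libraries. Of the 11 markers 10 were lower in foot, 0 were higher and 1 was not called. Skeletal actin Acta1 was at 12794, 10226 and 10729.7 CPM in foot and 23046, 21756 and 25549.5 CPM in forelimb (log2 difference -1.06, SE 0.12, adjusted p = 6.8e-05). The giant sarcomere spring titin, Ttn, was at 6257, 4628 and 4537 CPM in foot and 8799, 11022 and 9955 CPM in forelimb (log2 difference -0.95, SE 0.14, adjusted p = 3.9e-04). In bulk tissue, fewer fibres and less RNA per fibre cannot be told apart, and the same holds for every other cell type here. The share of a gene in a pair of related genes is given beside some of the levels. The genes of a pair can be made by different fibres or cells, so a share does not tell these apart either.

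Myosin heavy chain, the motor of the thick filament, differed between the limbs in the shares of its isoforms. The mouse genes for the skeletal isoforms lie side by side on chromosome 11 and are alike enough that a short read can belong to several of them. Of all stretches of 50 coding bases, 4.99% of those in the embryonic gene Myh3 also occurred in another of the 9 myosin heavy chain genes compared, against 22.7% in the neonatal gene Myh8, 19.6% in the fast gene Myh4, 27.9% in Myh1 and 28.1% in Myh2. For the slow gene Myh7 and its cardiac neighbour Myh6 the values were 23.9% and 23.8%, and Myh7b shared none. Between Myh3 and Myh8 themselves only 1.63% of the stretches were in common, so most reads of this length can be told apart between them. The longest run they share is printed here to show how alike the genes are there: coding exon 28 of each gene, from the GENCODE M21 transcripts on GRCm38, plus strand, at chr11:67096353-67096469 for Myh3 and chr11:67300007-67300123 for Myh8, with the 77 shared bases in capitals.
Myh3: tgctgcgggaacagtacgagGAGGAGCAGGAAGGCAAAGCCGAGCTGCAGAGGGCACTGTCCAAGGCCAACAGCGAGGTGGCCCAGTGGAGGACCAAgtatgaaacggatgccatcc
Myh8: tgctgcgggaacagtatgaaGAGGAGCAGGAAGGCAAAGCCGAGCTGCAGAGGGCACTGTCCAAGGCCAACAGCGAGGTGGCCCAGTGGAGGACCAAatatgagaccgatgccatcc
A read that lies inside the capitals cannot be given to either gene. The longest run that Myh3 shares with the fast gene Myh1 is 94 bases in coding exon 35. It is printed the same way, in capitals between flanking bases. The printed stretches lie at chr11:67100836-67100968 for Myh3 and chr11:67221551-67221683 for Myh1.
Myh3: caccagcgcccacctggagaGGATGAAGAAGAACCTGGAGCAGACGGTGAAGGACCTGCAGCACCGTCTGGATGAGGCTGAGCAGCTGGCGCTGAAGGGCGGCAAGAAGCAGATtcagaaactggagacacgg
Myh1: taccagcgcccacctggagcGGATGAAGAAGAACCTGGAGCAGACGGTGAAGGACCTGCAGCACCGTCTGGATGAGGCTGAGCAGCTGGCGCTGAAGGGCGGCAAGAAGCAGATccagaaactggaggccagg
How the authors counted such reads is not given in the sources used here, so levels of Myh1, Myh2, Myh4, Myh6, Myh7 and Myh8 are less certain than those of Myh3 and Myh7b.

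Foot muscle carried mostly embryonic myosin and forelimb muscle mostly neonatal myosin. Per transcript base, Myh3 made up 59.9%, 62.3% and 58.4% of the reads of the 9 genes in the 3 foot libraries and 29.4%, 29.8% and 26.6% in the forelimb libraries. Myh8 made up 29.6%, 24.6% and 28.1% in the foot and 60.3%, 59.2% and 61.8% in the forelimb. Neither gene's libraries overlapped, and the order of the pair was opposite in the limbs. The level of Myh3 was nearly the same in both, at 10959.7, 8692 and 7912 CPM in foot and 9156, 8568 and 9078 CPM in forelimb (log2 difference 0.04, SE 0.12, adjusted p = 0.80). The libraries overlapped, and the gene was not called. Myh8 was lower in foot, at 5566, 3519.9 and 3909 CPM in foot and 19263, 17474 and 21679.5 CPM in forelimb (log2 difference -2.17, SE 0.17, adjusted p = 1.1e-05). Adult fast myosins were a small part in either limb. The shares of Myh2, Myh4, Myh1 and Myh13 had means of at most 1.84% in the forelimb and 0.771% in the foot, and all 4 were lower in foot, with log2 differences of -2.55, -2.14, -2.27 and -3.30 (-4.13 for Myh13 without foot replicate 1). The slow gene Myh7 had a larger share in foot (5.31%, 6.36% and 6.01%) than in forelimb (4.44%, 4.80% and 5.08%), although its level was lower (log2 difference -0.75, SE 0.11, adjusted p = 3.8e-04). Myh7b, an ancient relative of the slow myosins, was higher in foot in level as well, with 372, 487 and 515 CPM in foot and 151, 149.6 and 180.4 CPM in forelimb (log2 difference 1.51, SE 0.13, adjusted p = 1.6e-05). Its share was 1.97%, 3.39% and 3.69% in the foot libraries and 0.473%, 0.505% and 0.513% in the forelimb libraries.

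**Figure D1:**
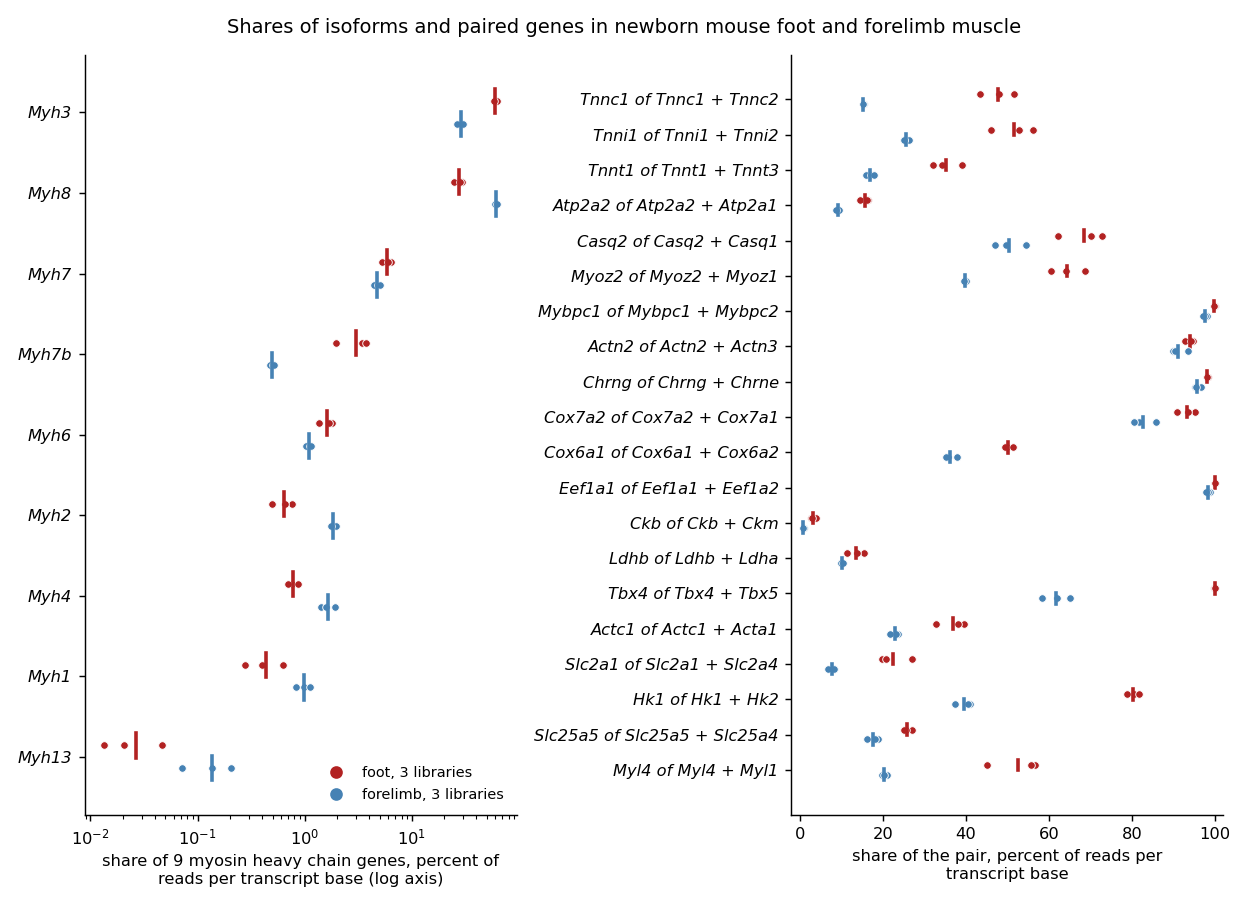
The left panel plots each myosin heavy chain gene's share of the reads of 9 genes per transcript base (percent, log axis), and the right panel the share of the first gene in 20 pairs of related genes (percent). Points are libraries, red for foot and blue for forelimb, and bars are means: Myh3 holds a mean of 60.2% in foot and 28.6% in forelimb. At right, 19 of the 20 pairs are further right in foot without overlap, the exception being Actn2 of Actn2 and Actn3. The pairs and their first genes were set with values of these data known, so that count is a description. Levels of 63.9% of all tested features did not overlap.

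The same shift was seen in the proteins that make contraction respond to calcium. The pairs of isoforms in this paragraph were chosen after the values were seen, so their shares are a description. Cardiac and slow troponin C, Tnnc1, made up 43.3%, 51.7% and 48.1% of Tnnc1 and the fast gene Tnnc2 in foot and 15.4%, 15.2% and 15.3% in forelimb. The level of Tnnc1 was higher in foot, at 1701, 1547 and 1454 CPM in foot and 626, 589 and 689 CPM in forelimb (log2 difference 1.30, SE 0.09, adjusted p = 7.1e-06), while Tnnc2 was lower (log2 difference -1.01, SE 0.15, adjusted p = 4.1e-04). Slow troponin I, Tnni1, made up 46.0%, 56.1% and 52.8% of the pair with fast Tnni2 in foot and 26.4%, 25.2% and 25.1% in forelimb. For slow troponin T, Tnnt1, in the pair with fast Tnnt3 the shares were 32.1%, 39.0% and 34.3% in foot and 16%, 17.1% and 17.9% in forelimb. The libraries of the limbs did not overlap in any of these 3 pairs. Of the embryonic isoforms, the atrial and embryonic light chain Myl4 made up 45.2%, 56.7% and 55.8% of Myl4 and Myl1 in foot and 19.8%, 20.9% and 20.4% in forelimb. Cardiac actin, Actc1, made up 32.7%, 39.5% and 38.2% of Actc1 and Acta1 in foot and 23.7%, 23.1% and 21.8% in forelimb. The level of Tnni1 was not called (log2 difference 0.22, SE 0.10, adjusted p = 0.082), but was without forelimb replicate 1 (adjusted p = 0.012 in edgeR). Actc1 itself was not called (log2 difference -0.09, SE 0.09, adjusted p = 0.39), and Myl4 was higher in foot (log2 difference 0.78, SE 0.08, adjusted p = 3.6e-05).

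All 22 tested isoforms of fast fibres were lower in foot, with a median difference of -1.76. Parvalbumin, Pvalb, which soaks up calcium to speed relaxation, was at 1.60, 1.11 and 0.893 CPM in foot and 97.4, 111 and 107 CPM in forelimb (log2 difference -6.47, SE 0.15, adjusted p = 3.2e-08). Parvalbumin RNA was low in every foot library and plain in every forelimb library. Fast myosin binding protein C, Mybpc2, was at 3.53, 2.86 and 3.64 CPM in foot and 101, 115 and 157 CPM in forelimb (log2 difference -5.23, SE 0.19, adjusted p = 3.6e-07). Aqp4, the water channel of fast fibre membranes, was at 0.160, 0.146 and 0.143 CPM in foot and 11.6, 21.4 and 19.5 CPM in forelimb (log2 difference -6.84, SE 0.35). Myoz3, a Z disc protein of fast fibres that binds calcineurin, was at 2.45, 0.760 and 0.929 CPM in foot and 29.7, 29.5 and 35.5 CPM in forelimb (log2 difference -4.58, SE 0.30, adjusted p = 4.8e-06), or a log2 difference of -5.23 without foot replicate 1. The smallest difference of the list was that of Tbx15, a transcription factor found in glycolytic fibres (log2 difference -0.63, SE 0.13, adjusted p = 0.0021). The fast calcium pump Atp2a1 and the fast regulatory light chain Mylpf lay between, at -1.74 and -0.78.

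Slow isoforms were not simply the mirror image. Of 21 tested, 5 were higher in foot, 15 lower and 1 not called, with a median of -0.66. The 5 that were higher were Ankrd2, Tnnc1, Myh7b, Myl6b and Tnnt1. Ankrd2, an ankyrin repeat protein of the Z disc and I band that responds to stretch, was at 128, 174 and 163 CPM in foot and 43.2, 45.0 and 49.3 CPM in forelimb (log2 difference 1.75, SE 0.12, adjusted p = 5.1e-06). Its relative Ankrd1, listed with the developmental and cardiac isoforms, was at 69.9, 242 and 164 CPM in foot and 30.6, 40.0 and 40.7 CPM in forelimb (log2 difference 2.10, SE 0.35, adjusted p = 7.7e-04). Myl6b, a slow light chain, differed by 0.64 and Tnnt1 by 0.72. Among the slow genes that were lower were the muscle protein Smpx (log2 difference -1.07, SE 0.09, adjusted p = 1.6e-05), the slow regulatory light chain Myl2 (log2 difference -1.95, SE 0.29, adjusted p = 3.4e-04) and sarcolipin, Sln, a small brake on the calcium pump (log2 difference -1.26, SE 0.16, adjusted p = 1.7e-04). So were the slow pump Atp2a2 (log2 difference -0.88, SE 0.08, adjusted p = 2.8e-05) and slow myosin binding protein C, Mybpc1 (log2 difference -1.29, SE 0.16, adjusted p = 1.1e-04). A gene could be lower in level and still make up more of its pair in foot. Atp2a2 made up 14.5%, 16.4% and 16.1% of both calcium pumps in foot and 9.24%, 9.57% and 8.80% in forelimb. Calsequestrin 2, Casq2, the calcium store of slow and cardiac fibres, made up 62.1%, 72.9% and 70.1% of both calsequestrins in foot and 54.5%, 49.7% and 47.1% in forelimb.

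The list of developmental and cardiac isoforms had 14 tested members, of which 6 were higher in foot, 5 lower and 3 not called (median -0.03). Cardiac troponin T, Tnnt2, was at 783, 677 and 695 CPM in foot and 383, 356 and 397 CPM in forelimb (log2 difference 0.92, SE 0.08, adjusted p = 2.2e-05). The embryonic acetylcholine receptor subunit Chrng was higher by 0.42, and Nppa, higher by 2.40, lay at means of 0.510 ± 0.0650 CPM and 0.0916 ± 0.0545 CPM (SD, n = 3). Myh8 was the lowest of the list, followed by the cardiac myosin Myh6 (log2 difference -0.50, SE 0.09, adjusted p = 0.0012), which was not called in a fit over all 24 libraries (adjusted p = 0.068 in edgeR). The non-muscle myosins Myh9 and Myh10 were lower by little (-0.36 and -0.30).

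Of 33 tested genes of the Z disc and M band, which anchor the filaments, 24 were lower in foot, 3 higher and 6 not called, with a median of -0.50. After Myoz3, the lowest were Myoz1, another calcineurin-binding protein of the Z disc (log2 difference -2.11, SE 0.17, adjusted p = 1.3e-05), and the rare nebulette gene Nebl (-1.61, with means under 1 CPM). Next came the scaffold Pdlim5 (log2 difference -1.44, SE 0.12, adjusted p = 1.6e-05) and the M band protein Myom2 (log2 difference -1.08, SE 0.10, adjusted p = 2.2e-05). The 3 that were higher were the small heat shock protein Cryab (log2 difference 0.66, SE 0.09, adjusted p = 1.8e-04), the scaffold Pdlim7 (log2 difference 0.60, SE 0.11, adjusted p = 0.001) and Synpo2l (log2 difference 0.34, SE 0.13, adjusted p = 0.047). The Synpo2l libraries overlapped, and its call was lost when any 1 of foot replicates 2 and 3 and forelimb replicates 1, 2 and 3 was left out (adjusted p of 0.066 to 0.17 in edgeR) and in limma voom (adjusted p = 0.055). Smyd1, a methyltransferase needed for thick filament assembly, was at a mean of 472 ± 14.2 CPM in foot and 463 ± 29.4 CPM in forelimb (SD, n = 3) and was not called (0.03).

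The triad couples the electrical signal to calcium release, and its genes were nearly all lower in foot. Of 45 tested genes of the triad, calcium handling and membrane excitability, 38 were lower, 1 was higher and 6 were not called, with a median of -0.91. The calcium release channel Ryr1 was at 383, 399.8 and 382 CPM in foot and 1291, 1263 and 1397 CPM in forelimb (log2 difference -1.76, SE 0.08, adjusted p = 5.7e-07). Its neonatal relative Ryr3 was at 40.7, 42.0 and 40.5 CPM in foot and 127, 129 and 141 CPM in forelimb (log2 difference -1.69, SE 0.07, adjusted p = 5.7e-07). Trdn, which holds calsequestrin to the channel, was lower by a log2 difference of -1.42, and Jph1, which ties the triad membranes together, by -1.02. The voltage sensor Cacna1s, at -0.56, was lower by less than the release channel. Stac3, Cacng6, Cav3 and Kcnc4 were not called (-0.16, -0.18, -0.27 and -0.21), nor was Fxyd1 (0.11). Without foot replicate 1, the foot library richest in muscle markers, Stac3, Cacng6 and Cav3 were called lower (adjusted p = 0.0043, 0.045 and 0.012 in edgeR), and Cav3 was also called by DESeq2 (adjusted p = 0.037). Fkbp1a, which binds the release channel and is widely expressed, was the gene that was higher (log2 difference 0.45, SE 0.07, adjusted p = 4.5e-04).

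Channels that set the resting potential and carry the adult action potential were among the genes that were lower. The inward rectifier Kcnj12 was at 6.30, 5.32 and 5.46 CPM in foot and 40.7, 33.1 and 35.1 CPM in forelimb (log2 difference -2.68, SE 0.12, adjusted p = 5.7e-07). Its relative Kcnj2 was at 18.1, 11.3 and 17.1 CPM in foot and 64.7, 61.5 and 77.5 CPM in forelimb (log2 difference -2.14, SE 0.17, adjusted p = 9.2e-06). The adult sodium channel Scn4a was at 31.3, 24 and 26.9 CPM in foot and 94.3, 90.0 and 101 CPM in forelimb (log2 difference -1.80, SE 0.10, adjusted p = 2.2e-06). Scn4b, an accessory subunit among the largest decreases of all genes, was at 4.73, 2.31 and 2.79 CPM in foot and 39.2, 41.6 and 49.2 CPM in forelimb (log2 difference -3.75, SE 0.21, adjusted p = 2.4e-06).

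The list of glycogen use and glycolysis also held genes of creatine and AMP use, among them Ckm, Ckmt2, Ckb and Ampd1. Of its 43 tested features 36 were lower in foot, 2 higher and 5 not called (median -0.86). The features include a pair that both carry the symbol Aldoa, whose reads may be split. The mitochondrial creatine kinase Ckmt2, which passes energy from mitochondria to creatine, was at 12.2, 7.92 and 13.5 CPM in foot and 253, 211 and 269.5 CPM in forelimb (log2 difference -4.46, SE 0.19, adjusted p = 5.7e-07). Hexokinase 2, Hk2, which traps glucose in muscle, was at 30.0, 27.3 and 29.4 CPM in foot and 139, 129.9 and 148 CPM in forelimb (log2 difference -2.27, SE 0.08, adjusted p = 3.6e-07). Hk1, its counterpart in most tissues, made up 80.5%, 81.7% and 78.8% of Hk1 and Hk2 in foot and 40.9%, 40.6% and 37.3% in forelimb. Hk1 is not in the list, and its own level was higher in foot (log2 difference 0.38, adjusted p = 0.0021). The counts of the list therefore do not cover every counterpart of the muscle enzymes. The glucose transporter that answers to insulin, Slc2a4, was lower (log2 difference -1.59, SE 0.08, adjusted p = 1.2e-06). So were the lactate exporter Slc16a3 (log2 difference -2.04, SE 0.08, adjusted p = 5.7e-07), the glycogen targeting subunit Ppp1r3a (log2 difference -2.50, SE 0.11, adjusted p = 5.7e-07), and Phkg1, the catalytic subunit of muscle phosphorylase kinase (log2 difference -3.12, SE 0.14, adjusted p = 7.3e-07). The cytosolic glycerol phosphate dehydrogenase Gpd1 had a log2 difference of -2.77. Pgm2 and the brain creatine kinase Ckb were higher (log2 difference 0.40, SE 0.11, adjusted p = 0.0095 and log2 difference 0.23, SE 0.08, adjusted p = 0.034). The call of Ckb was lost when foot replicate 2 or any 1 of the 3 forelimb libraries was left out (adjusted p of 0.073 to 0.13 in edgeR). Gpi1, an enzyme of glycolysis, was not called, with means of 674 ± 29.0 CPM and 676 ± 51.5 CPM (SD, n = 3).

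Fat use followed the same direction with more exceptions. Of 51 tested genes of fatty acid uptake, storage and oxidation, 35 were lower, 2 higher and 14 not called (median -0.79). Plin4, which coats lipid droplets, was at 2.53, 0.906 and 2.07 CPM in foot and 51.3, 49.4 and 73.2 CPM in forelimb (log2 difference -5.03, SE 0.28, adjusted p = 2.1e-06). The nuclear receptor Ppara, which turns on fat oxidation, was at 1.88, 1.14 and 1.39 CPM in foot and 25.1, 13.7 and 22.1 CPM in forelimb (log2 difference -3.81, SE 0.27, adjusted p = 6.2e-06). Its coactivator Ppargc1a, a regulator of mitochondrial number, was at 5.78, 4.68 and 4.39 CPM in foot and 26.6, 18.8 and 28.1 CPM in forelimb (log2 difference -2.32, SE 0.17, adjusted p = 8.3e-06). Lpl, which frees fatty acids from blood lipoproteins, was at 72.4, 58.4 and 64.4 CPM in foot and 328, 342 and 404 CPM in forelimb (log2 difference -2.46, SE 0.11, adjusted p = 6.0e-07). The muscle carnitine transferase Cpt1b, which admits fatty acids to mitochondria, was lower (log2 difference -1.31, SE 0.21, adjusted p = 5.4e-04). Its counterpart of other tissues, Cpt1a, was not called (log2 difference 0.44, SE 0.20, adjusted p = 0.087). It was called higher in DESeq2 (adjusted p = 0.045) and in edgeR without forelimb replicate 3 (adjusted p = 0.036). The 2 genes that were higher were the uncoupling protein Ucp2, at 411, 385 and 364 CPM in foot and 174, 182 and 210.3 CPM in forelimb (log2 difference 1.03, SE 0.09, adjusted p = 1.8e-05) and Cidea, a lipid droplet protein of brown fat (log2 difference 0.60, SE 0.15, adjusted p = 0.0063). Several genes that were not called, among them Fabp3 (0.10) and Angptl4 (0.07), were called lower in foot at P3 (-1.42 and -0.89).

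The citrate cycle and the carriers of the inner mitochondrial membrane were lower as a group, in 35 of 37 tested genes, with 0 higher and a median of -0.80. Slc25a13 and Bdh1 were not called, at 0.14 and 0.08. Idh3a, the catalytic subunit of a rate-setting dehydrogenase of the cycle, was at 137, 85.1 and 87.9 CPM in foot and 304, 294 and 338 CPM in forelimb (log2 difference -1.59, SE 0.17, adjusted p = 4.7e-05). Oxct1, which burns ketone bodies, was at 93.3, 118 and 113 CPM in foot and 291, 282 and 285 CPM in forelimb (log2 difference -1.40, SE 0.09, adjusted p = 5.1e-06), and Dld, a subunit shared by several dehydrogenase complexes, and the aspartate and glutamate carrier Slc25a12 differed by -1.14 and -1.56. The muscle ADP and ATP carrier Slc25a4 differed by -1.34 and its ubiquitous counterpart Slc25a5 by -0.63. Citrate synthase, Cs, often used as a measure of mitochondrial content, differed less (log2 difference -0.64, SE 0.10, adjusted p = 4.8e-04).

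**Figure D2:**
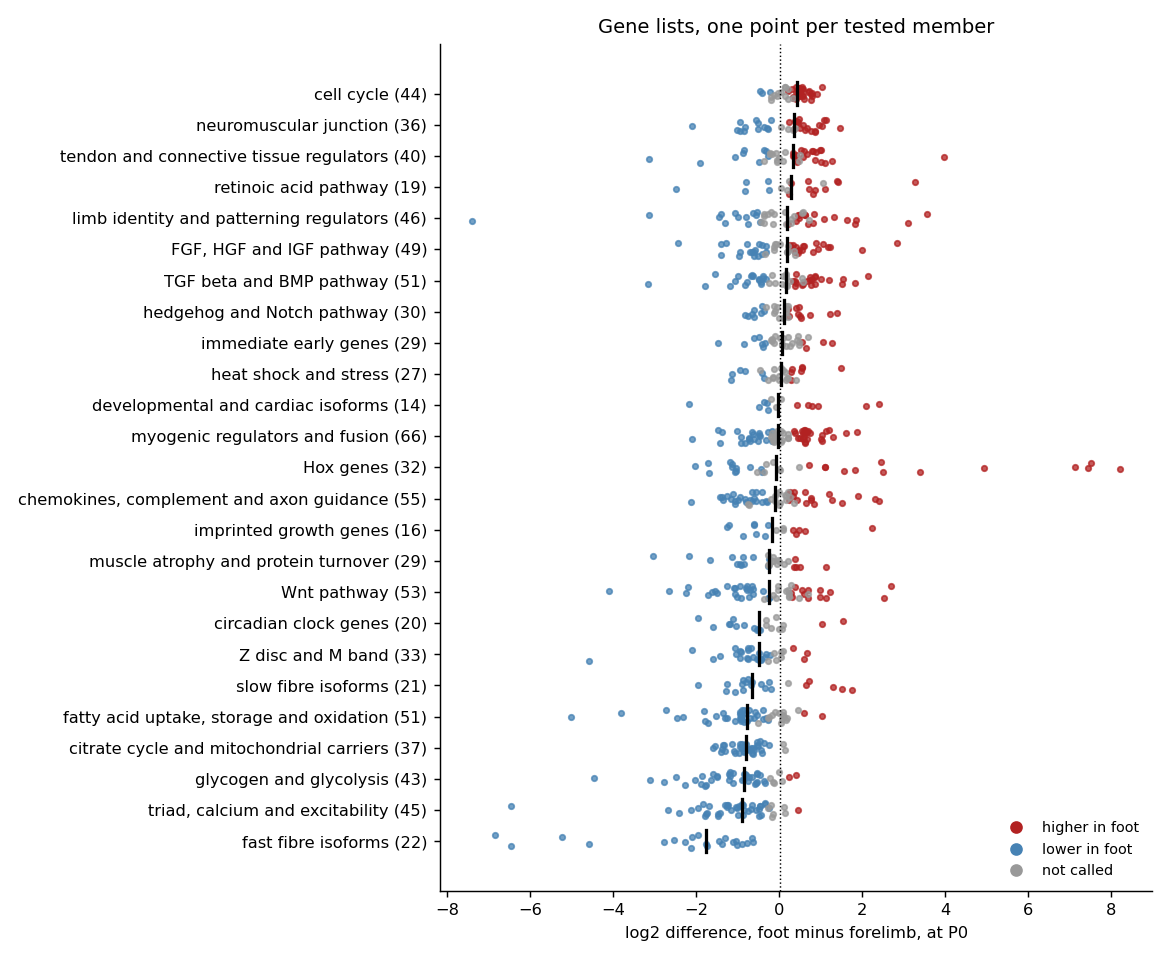
Each point is the log2 difference (foot minus forelimb, P0) of a tested member of a gene list, coloured by its call, with the number tested in brackets and a black bar at the list median; the dotted line is the median of all tested features (0.01). Lists are ordered by median, from 0.42 for cell cycle genes to -1.76 for fast fibre isoforms.

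Genes of myogenic regulation went both ways. Of 66 tested genes of regulation and fusion, 25 were higher, 22 lower and 19 not called (median -0.04). Myod1, the factor that commits cells to muscle, was at 209.5, 309 and 305 CPM in foot and 60.7, 87.7 and 76.4 CPM in forelimb (log2 difference 1.87, SE 0.17, adjusted p = 2.1e-05). Myog, which drives differentiation, was at 718, 809.6 and 827 CPM in foot and 356, 365 and 359.5 CPM in forelimb (log2 difference 1.12, SE 0.08, adjusted p = 6.3e-06). The libraries of the limbs did not overlap for either gene. Mymx and Mymk, the membrane proteins that fuse myoblasts, were higher (log2 difference 1.03, SE 0.07, adjusted p = 5.1e-06 and log2 difference 0.57, SE 0.08, adjusted p = 1.9e-04). Also higher were the homeobox gene Meox1 (log2 difference 1.61, SE 0.12, adjusted p = 7.6e-06), the TEAD cofactor Vgll2 (log2 difference 1.29, SE 0.10, adjusted p = 1.1e-05) and the inhibitors of myogenic factors Id1, Id2 and Id3 (1.0, 1.19 and 0.67). Myf5 was higher too, an early factor of myoblasts (log2 difference 0.67, SE 0.10, adjusted p = 3.9e-04).

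The genes that were lower were of other kinds. Sox6, which represses slow fibre genes, was at 30.7, 22.1 and 24.9 CPM in foot and 69.8, 65.4 and 68.0 CPM in forelimb (log2 difference -1.39, SE 0.11, adjusted p = 1.2e-05). Tead1 and Mef2c, factors that drive muscle genes, were lower (log2 difference -0.92, SE 0.07, adjusted p = 7.6e-06 and log2 difference -0.72, SE 0.11, adjusted p = 4.3e-04), as was Myf6, the myogenic factor of mature fibres (log2 difference -0.48, SE 0.11, adjusted p = 0.0043). The splicing regulators Mbnl1 and Rbfox1 were lower (-0.72 and -0.71). Calcr, the calcitonin receptor of quiescent satellite cells, was at 2.29, 2.19 and 1.93 CPM in foot and 8.20, 9.51 and 9.71 CPM in forelimb (log2 difference -2.10, SE 0.14, adjusted p = 6.0e-06). Pax7, the defining factor of satellite cells, was not called (log2 difference 0.21, SE 0.10, adjusted p = 0.089), but was higher without forelimb replicate 2 (log2 difference 0.32, adjusted p = 0.016 in edgeR). The summed level of 10 satellite cell markers was 975 to 1004 CPM in foot and 940.0 to 979.7 CPM in forelimb, and of the 10, 3 were higher, 4 lower and 3 not called.

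Genes of dividing cells were modestly higher in foot. Of 44 tested cell cycle genes, 29 were higher, 3 lower and 12 not called, with a median of 0.42. Cdk2 and Cdk4, kinases of the entry into S phase, were higher (log2 difference 0.78, SE 0.07, adjusted p = 1.8e-05 and log2 difference 0.79, SE 0.08, adjusted p = 5.0e-05), and so was Plk1, a mitotic kinase (log2 difference 1.02, SE 0.20, adjusted p = 0.0018). The proliferation marker Mki67 differed by 0.31 (adjusted p = 0.0047), and Top2a was not called (-0.03). The 3 that were lower were the retinoblastoma gene Rb1 (log2 difference -0.47, SE 0.07, adjusted p = 3.4e-04), the cell cycle inhibitor Cdkn1a (log2 difference -0.41, SE 0.12, adjusted p = 0.016) and cyclin D1, Ccnd1 (log2 difference -0.22, SE 0.08, adjusted p = 0.04). The call of Cdkn1a was lost without foot replicate 2 (adjusted p = 0.057 in edgeR) or forelimb replicate 1 (0.058), and that of Ccnd1, whose libraries overlapped, when any 1 of foot replicates 2 and 3 and forelimb replicates 2 and 3 was left out (0.12 to 0.15). Of the 29 genes that were higher, 3 passed the test against a change of 1.5-fold.

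At the neuromuscular junction, most acetylcholine receptor genes were higher in foot and several genes of the dystrophin scaffold lower. Of 36 genes tested, 19 were higher, 13 lower and 4 not called (median 0.36). The smallest p among the genes that were higher was that of Ufsp1, which lies beside the acetylcholinesterase gene (log2 difference 1.12, SE 0.08, adjusted p = 7.5e-06). Acetylcholinesterase itself, Ache, which ends each signal, was at 270.5, 284 and 288 CPM in foot and 157, 148 and 158 CPM in forelimb (log2 difference 0.86, SE 0.07, adjusted p = 1.1e-05). Dok7, which switches on the receptor kinase MuSK, was at 108, 119.6 and 128 CPM in foot and 57.4, 59.5 and 57.9 CPM in forelimb (log2 difference 1.03, SE 0.08, adjusted p = 9.1e-06), and Rapsn, which clusters the acetylcholine receptor, was higher by 0.66. The receptor subunits Chrna1, Chrnb1, Chrnd and Chrng were all higher, by 0.56, 0.44, 0.39 and 0.42. The adult subunit Chrne was lower (log2 difference -0.83, SE 0.16, adjusted p = 0.002), and the embryonic Chrng made up 98.1%, 98.4% and 98.0% of Chrng and Chrne in foot and 96.6%, 95.1% and 95.5% in forelimb. Musk was not called, with means of 45.4 ± 1.53 CPM and 44.4 ± 2.60 CPM (SD, n = 3). Of the factors that fibres make for nerves, Ntf3 and Gdnf were higher (log2 difference 0.95, SE 0.15, adjusted p = 5.4e-04 and log2 difference 0.85, SE 0.21, adjusted p = 0.0067), at means of 5.21 ± 0.505 CPM and 5.15 ± 1.17 CPM in foot (SD, n = 3). Lower in foot were Utrn, the relative of dystrophin at the junction, and Dtna, a partner of the dystrophin complex (log2 difference -0.84, SE 0.08, adjusted p = 2.9e-05 and log2 difference -0.94, SE 0.10, adjusted p = 6.2e-05). Also lower were the neuregulin receptor Erbb4 (log2 difference -1.01, SE 0.10, adjusted p = 4.5e-05) and the semaphorin Sema3c (log2 difference -0.94, SE 0.07, adjusted p = 7.6e-06). A nicotinic receptor subunit outside the junction list, Chrna9, was among the largest decreases of all genes, at 1.36, 1.05 and 1.18 CPM in foot and 27.9, 23.4 and 27.9 CPM in forelimb (log2 difference -4.47, SE 0.15, adjusted p = 2.7e-07).

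Regulators that give the limbs their identity differed between the limbs. Tbx5, the T-box gene of the forelimb, was at 0.120, 0.0877 and 0.0357 CPM in foot and 11.9, 14.5 and 16.1 CPM in forelimb (log2 difference -7.40, SE 0.28), with 7 reads in foot and 1645 in forelimb. Tbx4, the T-box gene of the hindlimb, was at 60.1, 65.1 and 67.8 CPM in foot and 17.7, 18.8 and 18.0 CPM in forelimb (log2 difference 1.82, SE 0.08, adjusted p = 5.7e-07). Of the reads of both per transcript base, Tbx4 took a mean of 99.9% in foot and 65.0%, 61.9% and 58.3% in forelimb, so the forelimb muscle held more of the hindlimb gene than of its own. Pitx1, which acts before Tbx4 in the hindlimb, was at 6.86, 6.69 and 6.54 CPM in foot and 0.483, 0.607 and 0.595 CPM in forelimb (log2 difference 3.57, SE 0.17, adjusted p = 1.0e-06). In the list of 46 tested regulators of limb identity and pattern, 17 were higher, 13 lower and 16 not called (median 0.19), and another 11 of the 57 in the tables had too few reads to be tested.

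Factors of digits and skeletal elements also differed. Pax9, which marks the front margin of the foot, was at 4.53, 4.12 and 3.68 CPM in foot and 0.508, 0.491 and 0.428 CPM in forelimb (log2 difference 3.10, SE 0.20, adjusted p = 5.1e-06). Prrx2 was higher in foot (log2 difference 1.63, SE 0.12, adjusted p = 8.3e-06) and its relative Prrx1, a gene of limb connective tissue, lower (log2 difference -1.08, SE 0.06, adjusted p = 3.3e-06). Shox2, a gene of the upper limb segment, was at 0.842, 0.731 and 0.929 CPM in foot and 5.05, 8.58 and 8.30 CPM in forelimb (log2 difference -3.13, SE 0.26, adjusted p = 1.2e-05). Alx4 and Meis2 were lower (log2 difference -1.46, SE 0.14, adjusted p = 2.4e-05 and log2 difference -1.41, SE 0.33, adjusted p = 0.005), Meis2 at means of 0.464 ± 0.238 CPM and 1.25 ± 0.0967 CPM (SD, n = 3). Among the Hox genes, Hoxc6, Hoxc8, Hoxc9, Hoxc10 and Hoxc11 passed the read minimum through the foot alone and had to differ. Of 32 tested Hox genes with these included, 13 were higher, 12 lower and 7 not called (median -0.07). Of those that were lower, Hoxd8 was at 3.37, 3.83 and 4.93 CPM in foot and 11.1, 14.2 and 14.8 CPM in forelimb (log2 difference -1.73, SE 0.17, adjusted p = 3.4e-05), and Hoxa4 was at 1.20, 0.847 and 1.21 CPM in foot and 3.40, 4.88 and 5.04 CPM in forelimb (log2 difference -2.04, SE 0.23, adjusted p = 7.5e-05). Of those that were higher, Hoxc10 was at 27.8, 22.3 and 22.0 CPM in foot and 0.0762, 0.0578 and 0.0952 CPM in forelimb (log2 difference 8.21, SE 0.22), with 9 reads in forelimb. Hoxc11 was at 13.2, 10.9 and 13.6 CPM in foot and 0.0254, 0.173 and 0.0714 CPM in forelimb (log2 difference 7.12, SE 0.30), with 10 reads in forelimb and a log2 difference of 7.89 without forelimb replicate 2. The count of Hoxc8 was 56 for the foot group against 0 for the forelimb group, which makes it at least 24.8-fold higher when 3 reads are set as the floor. Hoxc9 had 464 reads in foot and 3 in forelimb, a ratio of 206 with a 95% counting interval of 70.0 to 1002. Hoxd13 and Hoxd12, genes of the digits, were higher in foot, at 2.49 and 2.46.

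Retinoic acid, a vitamin A derivative that patterns limbs and differentiates cells, is made by Aldh1a enzymes, carried by Crabp proteins and broken down by Cyp26 enzymes. Of 19 tested genes of this pathway 10 were higher in foot, 5 lower and 4 not called (median 0.27). The carrier Crabp2 was at 45.7, 36.4 and 34.4 CPM in foot and 4.37, 4.71 and 3.05 CPM in forelimb (log2 difference 3.27, SE 0.17, adjusted p = 1.5e-06). Its relative Crabp1 was higher by 0.85. The synthetic enzyme Aldh1a3 was at 110.3, 93.3 and 92.4 CPM in foot and 39.8, 37.1 and 36.6 CPM in forelimb (log2 difference 1.38, SE 0.09, adjusted p = 4.2e-06), whereas the synthetic enzyme Aldh1a2 was lower (log2 difference -0.80, SE 0.10, adjusted p = 1.2e-04). The degrading enzyme Cyp26b1 was higher, at 18.1, 19.6 and 23.3 CPM in foot and 7.64, 8.61 and 6.73 CPM in forelimb (log2 difference 1.41, SE 0.13, adjusted p = 2.7e-05). Of the receptors, Rara, Rarg and Rxrg were higher (0.81, 0.72 and 1.09) and Rarb lower (log2 difference -0.82, SE 0.12, adjusted p = 4.2e-04). Lrat, which stores vitamin A as esters, was lower, at means of 0.295 ± 0.225 CPM and 1.72 ± 0.432 CPM (SD, n = 3, log2 difference -2.48, SE 0.45, adjusted p = 0.0012). Without foot replicate 3 or forelimb replicate 3, 3 genes of the list were lower in place of 5.

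Wnt signalling genes were more often lower in foot, 27 of 53 tested against 13 higher and 13 not called (median -0.24). Of the ligands, Wnt4 was at 7.14, 5.79 and 10.3 CPM in foot and 37.5, 32.1 and 37.3 CPM in forelimb (log2 difference -2.21, SE 0.18, adjusted p = 1.2e-05). Wnt11 and Wnt16 were lower (log2 difference -1.5, SE 0.13, adjusted p = 1.6e-05 and log2 difference -4.10, SE 0.38, or -4.70 without foot replicate 1), while Wnt5b was higher (log2 difference 0.68, SE 0.12, adjusted p = 1.0e-03). Of the secreted inhibitors, Sfrp4 was at 2.73, 5.03 and 4.39 CPM in foot and 27.8, 26.8 and 22.5 CPM in forelimb (log2 difference -2.65, SE 0.19, adjusted p = 6.7e-06), but Sfrp2, Wif1 and Dkk3 were higher (1.21, 0.97 and 0.59). Lgr6, a receptor for the R-spondins that amplify the signal, was at 16.7, 14.0 and 15.5 CPM in foot and 2.01, 2.49 and 2.62 CPM in forelimb (log2 difference 2.70, SE 0.14, adjusted p = 1.5e-06). Its relatives Lgr5 and Lgr4 went in opposite directions (log2 difference 1.12, SE 0.26, adjusted p = 0.0047 and log2 difference -0.77, SE 0.07, adjusted p = 2.8e-05). Axin2, a target gene that reads out the pathway, was lower (log2 difference -0.80, SE 0.13, adjusted p = 6.9e-04), and the target genes Nkd1 and Nkd2 were higher (log2 difference 0.70, SE 0.09, adjusted p = 1.7e-04 and log2 difference 0.99, SE 0.12, adjusted p = 1.4e-04).

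Genes of TGF beta and BMP signalling went both ways. Of 51 tested, 21 were higher, 18 lower and 12 not called (median 0.16). The inhibin and activin subunits Inha and Inhbb were higher, at 75.4, 87.9 and 108 CPM in foot and 33.5, 28.7 and 31.6 CPM in forelimb for Inha (log2 difference 1.53, SE 0.13, adjusted p = 1.2e-05) and 2.14 for Inhbb. Fstl3, a secreted antagonist of activin and myostatin, was higher (log2 difference 1.83, SE 0.22, adjusted p = 1.0e-04). The latent TGF beta binding protein Ltbp2 was at 72.8, 80.3 and 90.0 CPM in foot and 29.9, 29.4 and 25.9 CPM in forelimb (log2 difference 1.51, SE 0.10, adjusted p = 4.6e-06). Bmp4, Bmp5 and Gdf11 were higher (0.87, 0.87 and 0.85). Of the receptors, Tgfbr1, Tgfbr2, Bmpr1a, Bmpr1b, Bmpr2, Acvr2a, Acvr2b and Tgfbr3 were lower, from -0.83 for Tgfbr1 to -0.33 for Tgfbr2. The BMP antagonist Chrdl1 was lower (log2 difference -1.55, SE 0.14, adjusted p = 1.8e-05). Mstn, the muscle growth inhibitor myostatin, was at 58.4, 45.6 and 43.5 CPM in foot and 60.6, 57.9 and 58.1 CPM in forelimb with overlap and was not called (log2 difference -0.26, SE 0.11, adjusted p = 0.06). It was called lower without foot replicate 1 (log2 difference -0.40, adjusted p = 6.8e-04 in edgeR) and in limma voom (adjusted p = 0.043).

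Growth factors of muscle also went both ways. Of 49 tested genes of the FGF, HGF and IGF pathways, 19 were higher, 18 lower and 12 not called. Igf1, the main growth factor of muscle, was at 162, 225 and 194 CPM in foot and 542, 468 and 524 CPM in forelimb (log2 difference -1.40, SE 0.12, adjusted p = 1.6e-05), and the insulin receptor Insr was lower (log2 difference -0.98, SE 0.09, adjusted p = 2.0e-05). Hgf, which wakes satellite cells, was lower, at means of 0.636 ± 0.178 CPM and 3.56 ± 0.711 CPM (SD, n = 3, log2 difference -2.45, SE 0.26, adjusted p = 4.7e-05). Pdgfc, a growth factor of mesenchyme, was higher (log2 difference 0.81, SE 0.07, adjusted p = 2.1e-05). Fgf6, made by muscle, was at 60.1, 91.8 and 84.2 CPM in foot and 28.7, 38.5 and 46.0 CPM in forelimb (log2 difference 1.06, SE 0.18, adjusted p = 9.1e-04). Fgf5 and the FGF carrier Fgfbp1 were higher (log2 difference 2.0, SE 0.39, adjusted p = 0.0017 and log2 difference 2.84, SE 0.26, adjusted p = 2.4e-05), at means under 6 CPM. Spry4 and Etv4, genes switched on by FGF signals, were higher (log2 difference 1.17, SE 0.14, adjusted p = 1.2e-04 and log2 difference 0.92, SE 0.08, adjusted p = 2.1e-05), and the receptors Fgfr1 and Fgfr4 were higher (0.47 and 0.59). Fgfrl1, a receptor without a kinase, was at 136, 122 and 130.5 CPM in foot and 318, 298 and 328 CPM in forelimb (log2 difference -1.28, SE 0.08, adjusted p = 3.0e-06). Igf2 had 5 reads in all and was not tested, and no level is given for it.

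Among guidance cues and chemokines, 17 of 55 tested genes were higher in foot, 23 lower and 15 not called (median -0.10). Slit2, which repels axons through Robo receptors, was at 28.6, 25.9 and 23.2 CPM in foot and 5.71, 5.26 and 4.76 CPM in forelimb (log2 difference 2.30, SE 0.12, adjusted p = 1.4e-06). Netrin 1, Ntn1, an attractant, was at 17.3, 13.8 and 17.4 CPM in foot and 74.5, 69.7 and 68.8 CPM in forelimb (log2 difference -2.14, SE 0.10, adjusted p = 8.1e-07). Sema3e was higher (log2 difference 1.20, SE 0.18, adjusted p = 3.4e-04), Sema5a was lower (log2 difference -1.26, SE 0.08, adjusted p = 4.0e-06), and so was the semaphorin and VEGF receptor Nrp1 (log2 difference -1.11, SE 0.08, adjusted p = 6.0e-06). Cxcl12, the chemokine of muscle precursors and blood vessels, was lower (log2 difference -1.35, SE 0.08, adjusted p = 4.2e-06). The monocyte chemokines Ccl2 and Ccl7 and the interferon target Cxcl9 were higher (1.90, 1.52 and 2.40), all at means of 5.23 CPM or less in foot. Of 30 tested genes of hedgehog and Notch signalling, 10 were higher, 8 lower and 12 not called. Notch3 (log2 difference -0.65, SE 0.08, adjusted p = 1.5e-04) and Jag1 (log2 difference -0.76, SE 0.11, adjusted p = 3.1e-04) were lower and Smo, the hedgehog transducer, was higher (log2 difference 0.41, SE 0.07, adjusted p = 5.3e-04).

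**Figure D3:**
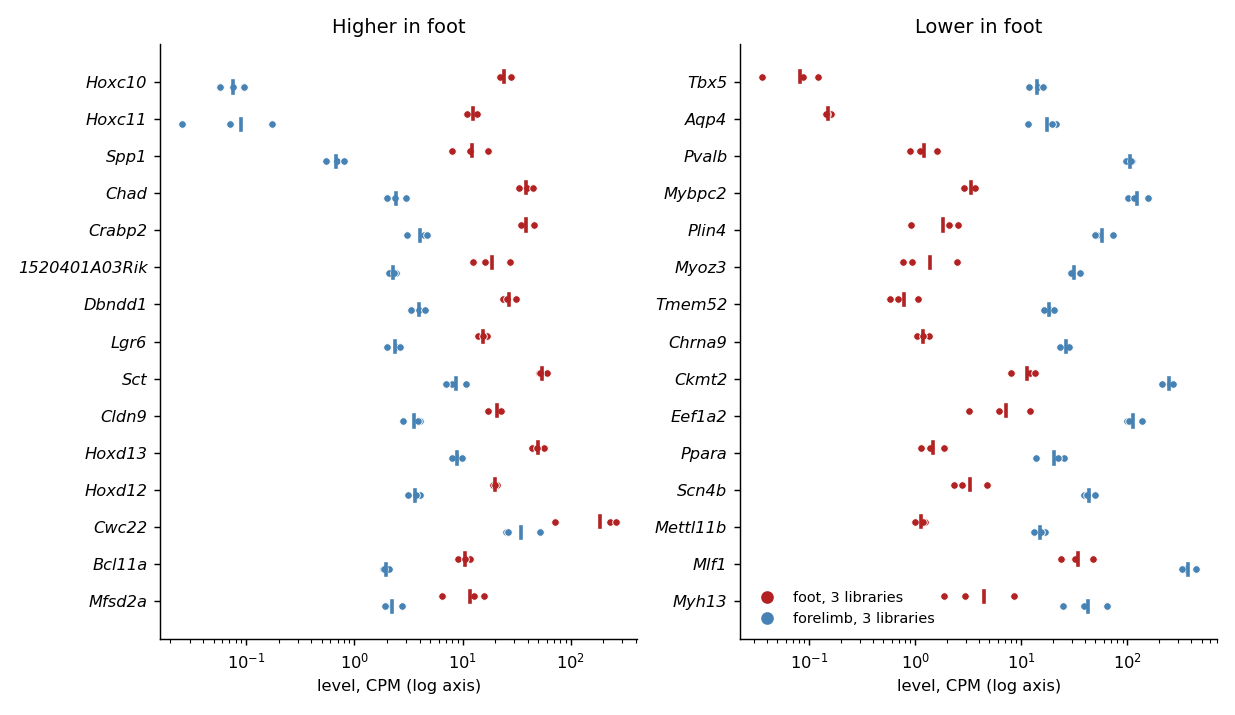
Levels (CPM, log axis) in each library of the 15 largest increases and 15 largest decreases with a mean of at least 10 CPM in a limb and no overlap; points are libraries (red foot, blue forelimb) and bars group means. Cwc22, Mfsd2a, Myh13 and Eef1a2 spread widely between libraries of a limb, and Pvalb is near 1 CPM in every foot library and near 100 CPM in every forelimb library.

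The genes with the largest increases that belonged to none of the lists above were a mixed group. Sct, which encodes the hormone secretin, was at 60.0, 50.5 and 51.7 CPM in foot and 10.8, 8.06 and 7.02 CPM in forelimb (log2 difference 2.65, SE 0.15, adjusted p = 2.4e-06). Bcl11a, a transcriptional repressor, was at 8.98, 11.8 and 10.6 CPM in foot and 1.85, 2.11 and 1.86 CPM in forelimb (log2 difference 2.43, SE 0.15, adjusted p = 4.2e-06). Dbndd1 was at 23.6, 25.6 and 31.1 CPM in foot and 3.94, 4.51 and 3.33 CPM in forelimb (log2 difference 2.77, SE 0.15, adjusted p = 1.7e-06). The claudin Cldn9 was at 17.3, 21.8 and 22.7 CPM in foot and 4.04, 3.87 and 2.81 CPM in forelimb (log2 difference 2.53, SE 0.17, adjusted p = 5.0e-06). Cwc22, a splicing factor, was at 228, 70.7 and 260.3 CPM in foot and 25.3, 52.4 and 26.0 CPM in forelimb (log2 difference 2.43, SE 0.45, adjusted p = 0.0013), with foot replicate 2 far below the other foot libraries. The lipid transporter Mfsd2a was at 6.50, 15.8 and 12.7 CPM in foot and 2.74, 1.97 and 1.93 CPM in forelimb (log2 difference 2.41, SE 0.30, adjusted p = 1.4e-04), and the unnamed gene 1520401A03Rik was higher by 3.05. Of the largest decreases outside the lists, Eef1a2, the translation elongation factor of mature muscle and neurons, was at 12.1, 3.19 and 6.21 CPM in foot and 99.4, 103 and 137 CPM in forelimb (log2 difference -4.02, SE 0.36, adjusted p = 1.9e-05), or a log2 difference of -4.62 without foot replicate 1. Mlf1 was at 47.4, 23.8 and 32.3 CPM in foot and 441, 347 and 328 CPM in forelimb (log2 difference -3.44, SE 0.23, adjusted p = 5.1e-06), and Tmem52 and the methyltransferase-like gene Mettl11b differed by -4.57 and -3.73.

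Most tendon markers were higher in foot, and most markers of endothelium and of fibroblasts lower. Of 8 genes that mark tendon, 7 were called higher and 1 was not called, and their summed level was 3526 to 3874 CPM in foot against 2694 to 2887 CPM in forelimb. Scx, the transcription factor that defines tendon cells, was at 90.5, 95.2 and 101 CPM in foot and 40.5, 52.4 and 41.1 CPM in forelimb (log2 difference 1.10, SE 0.11, adjusted p = 2.8e-05). Tnmd, a membrane protein of mature tendon, was at 461, 381 and 392 CPM in foot and 352, 307 and 264 CPM in forelimb (log2 difference 0.42, SE 0.12, adjusted p = 0.012). Chad, a leucine-rich matrix protein of skeletal tissue, was among the largest increases of all genes, at 39.0, 33.3 and 44.4 CPM in foot and 2.36, 2.02 and 2.97 CPM in forelimb (log2 difference 3.97, SE 0.16, adjusted p = 5.7e-07). In the wider list of 40 tested regulators and matrix genes of tendon and connective tissue, 19 were higher, 9 lower and 12 not called (median 0.32). Fmod, a proteoglycan of tendon, was at 755, 664 and 811 CPM in foot and 394, 362 and 351 CPM in forelimb (log2 difference 1.01, SE 0.09, adjusted p = 2.2e-05). Lum, a related proteoglycan, was lower, at 81.5, 58.2 and 62.0 CPM in foot and 323, 229 and 211 CPM in forelimb (log2 difference -1.92, SE 0.17, adjusted p = 2.2e-05).

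Cartilage markers were higher in 7 of 11 tested genes, lower in 1 and not called in 3, with a summed level of 316 to 413 CPM in foot and 245 to 356 CPM in forelimb. These ranges overlapped, so the sum of the list did not separate the limbs. Col10a1, the collagen of hypertrophic cartilage, was at 20.5, 4.21 and 1.14 CPM in foot and 0.0254, 0.116 and 0.0476 CPM in forelimb (log2 difference 7.05, SE 1.29), and the log2 difference was 5.42 without foot replicate 1 and 7.71 without forelimb replicate 2. Cnmd, an inhibitor of vessel growth in cartilage, was at 1.72, 5.17 and 4.07 CPM in foot and 0.152, 0.202 and 0.0952 CPM in forelimb (log2 difference 4.62, SE 0.49). Col2a1, the main cartilage collagen, was present in both limbs, at 150.1, 140.4 and 156 CPM in foot and 91.5, 77.3 and 53.3 CPM in forelimb (log2 difference 1.01, SE 0.16, adjusted p = 5.7e-04). Of 9 bone markers 5 were higher, 0 lower and 4 not called, but their summed level, mostly the collagen Col1a1, overlapped, at 10503 to 11328 CPM in foot and 10936 to 11689 CPM in forelimb. Ibsp, bone sialoprotein, had 340 reads in foot and 3 in forelimb, a ratio of 151 with a 95% counting interval of 51.2 to 735, which passed the minimum of 10 reads through the foot alone. Spp1, osteopontin, was at 17.0, 8.01 and 11.7 CPM in foot and 0.686, 0.809 and 0.547 CPM in forelimb (log2 difference 4.17, SE 0.31, adjusted p = 7.6e-06). The part of skeletal tissue in the other differences was not tested, and none of the cartilage markers Matn1, Ucma and Snorc reached the read minimum.

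Keratinocyte markers, which mark skin, went both ways. Of the 19 genes 9 were tested, 2 of them higher, 2 lower and 5 not called, and their summed level was 22.8 to 25.2 CPM in foot and 18.9 to 21.6 CPM in forelimb. Trp63 was higher (log2 difference 0.62, SE 0.13, adjusted p = 0.0027), and the desmosome gene Dsp was lower, at means of 0.465 ± 0.156 CPM and 2.41 ± 0.400 CPM (SD, n = 3, log2 difference -2.38, SE 0.28, adjusted p = 8.9e-05). Of 14 endothelial markers 11 were lower, 0 higher and 3 not called, with a summed level of 708 to 757 CPM in foot and 1167 to 1255 CPM in forelimb. The phosphatase Ptprb and the receptor Tie1 had the smallest p (log2 difference -1.60, SE 0.07, adjusted p = 5.7e-07 and log2 difference -1.14, SE 0.08, adjusted p = 5.1e-06). Pecam1 was at 132, 155 and 153 CPM in foot and 222, 208 and 227 CPM in forelimb (log2 difference -0.58, SE 0.08, adjusted p = 2.9e-04). The growth factor receptor Flt1 was at 17.8, 20.5 and 19.9 CPM in foot and 47.5, 44.1 and 49.6 CPM in forelimb (log2 difference -1.28, SE 0.09, adjusted p = 5.8e-06). Of 14 smooth muscle and pericyte markers, 7 were lower in foot, 2 were higher and 5 were not called. Their summed level was 4366 to 4772 CPM in foot and 5192 to 5728 CPM in forelimb. It includes Des, which is also among the muscle fibre markers. Myh11, the smooth muscle myosin, was at 6.38, 10.2 and 12.6 CPM in foot and 40.3, 38.5 and 41.8 CPM in forelimb (log2 difference -2.04, SE 0.19, adjusted p = 2.4e-05), and Acta2, smooth muscle actin, was higher (log2 difference 0.86, SE 0.11, adjusted p = 1.2e-04). Of 15 markers of fibro-adipogenic cells, the fibroblasts of muscle, 10 were lower, 3 higher and 2 not called, with a summed level of 1923 to 2187 CPM in foot and 2787 to 3233 CPM in forelimb. Pdgfra, their defining receptor, was lower (log2 difference -0.62, SE 0.09, adjusted p = 3.5e-04), and Ly6a, Dpp4 and Pi16, markers of the fibroblasts of the fascia, were lower as well (-2.46, -2.01 and -1.37).

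Markers of other cell types went both ways. Of 15 Schwann cell markers 4 were higher, 1 lower and 10 not called, with a summed level of 858 to 881 CPM in foot and 808 to 830.3 CPM in forelimb. Sox10, their defining factor, was at 29.4, 37.1 and 38.2 CPM in foot and 16, 22.7 and 19.8 CPM in forelimb (log2 difference 0.84, SE 0.14, adjusted p = 7.6e-04), and the myelin gene Mbp was higher (log2 difference 1.04, SE 0.26, adjusted p = 0.0074). Of 14 macrophage markers 1 was higher, 5 lower and 8 not called. Their summed level was 402 to 462 CPM in foot and 533 to 577 CPM in forelimb. Cd68 was at 21.7, 20.7 and 23.6 CPM in foot and 6.81, 8.58 and 8.40 CPM in forelimb (log2 difference 1.47, SE 0.12, adjusted p = 1.1e-05). Csf1r, the receptor that macrophages need, was lower (log2 difference -0.44, SE 0.08, adjusted p = 0.0013), and so were F13a1 and Cd163, markers of resident macrophages (log2 difference -1.13, SE 0.07, adjusted p = 4.8e-06 and log2 difference -1.70, SE 0.20, adjusted p = 1.0e-04). Of 6 tested fat cell markers 2 were higher, 3 lower and 1 not called. Car3, which muscle also makes, held most of their summed level of 3814 to 4184 CPM in foot and 2288 to 2642 CPM in forelimb. Of 4 tested osteoclast markers 1 was higher, Mmp9 (log2 difference 1.78, SE 0.22, adjusted p = 1.1e-04), 1 lower and 2 not called, and of 10 blood cell markers 3 were higher, 1 lower and 6 not called. Ngp, a neutrophil granule gene, was at means of 3.02 ± 1.44 CPM and 0.484 ± 0.270 CPM (SD, n = 3, log2 difference 2.60, SE 0.48, adjusted p = 0.0013).

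**Figure D4:**
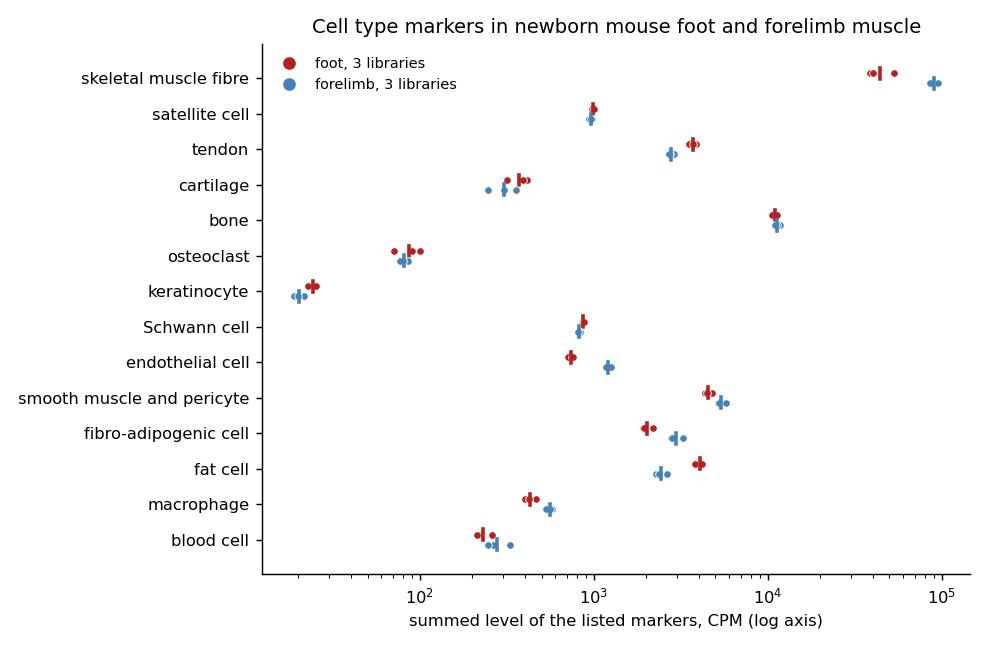
Summed level (CPM, log axis) of the listed markers of each cell type in each library; points are libraries (red foot, blue forelimb) and bars group means. Muscle fibre markers lie between 38654 and 53028 CPM in foot and at or above 85114 CPM in forelimb, and endothelial markers between 708 and 757 CPM in foot and 1167 and 1255 CPM in forelimb.

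Of genes that follow handling or the hour of sampling, most immediate early genes were not called and clock genes were more often lower in foot. Of 29 tested immediate early genes, which respond within minutes to stress and dissection, 4 were higher in foot, 7 lower and 18 not called (median 0.06). Fos was at 24.7, 56.8 and 65.2 CPM in foot and 46.5, 67.6 and 31.3 CPM in forelimb with overlap and was not called (log2 difference 0.02, SE 0.34, adjusted p = 0.96). Myc and Junb were higher (log2 difference 1.04, SE 0.16, adjusted p = 5.2e-04 and log2 difference 0.64, SE 0.16, adjusted p = 0.0077), and so was Egr1 with overlap between libraries (log2 difference 1.28, SE 0.49, adjusted p = 0.048). The call of Egr1 was lost in DESeq2 (adjusted p = 0.11), in limma voom (0.053) and in edgeR without foot replicates 2 or 3 or forelimb replicates 1 or 3 (0.11 to 0.16), and its log2 difference was 1.95 without forelimb replicate 2. Nr4a1 was lower (log2 difference -0.84, SE 0.15, adjusted p = 0.0012). Of 27 tested genes of heat shock and stress 7 were higher, 6 lower and 14 not called (median 0.04). Hmox1, the haem-degrading enzyme induced by oxidants, was at 73.0, 98.8 and 80.9 CPM in foot and 29.5, 30.9 and 30.1 CPM in forelimb (log2 difference 1.48, SE 0.11, adjusted p = 7.2e-06). Atf4, the main factor of the response to amino acid lack, was higher (log2 difference 0.54, SE 0.07, adjusted p = 2.4e-04) and its target Asns lower (log2 difference -0.82, SE 0.09, adjusted p = 4.4e-05). Of 20 tested clock genes 11 were lower, 2 higher and 7 not called (median -0.49). Rora and Nr1d2, nuclear receptors of the clock, were lower (log2 difference -1.96, SE 0.15, adjusted p = 1.0e-05 and log2 difference -1.21, SE 0.13, adjusted p = 5.4e-05), as were Nr1d1 and Per1 (-1.59 and -1.20). Npas2 and Ciart were higher (log2 difference 1.53, SE 0.12, adjusted p = 9.1e-06 and log2 difference 1.02, SE 0.22, adjusted p = 0.0029), and the core gene Cry1 was not called (0.00). The part of handling and hour in the other differences was not tested.

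Genes of muscle wasting were more often lower in foot. Of 29 tested genes of atrophy and protein turnover, 12 were lower, 5 higher and 12 not called (median -0.24). Klf15, a glucocorticoid target that drives amino acid breakdown, was at 2.77, 2.43 and 1.93 CPM in foot and 26.6, 13.3 and 19 CPM in forelimb (log2 difference -3.05, SE 0.26, adjusted p = 1.6e-05). The muscle ubiquitin ligase adaptor Fbxo40 was at 8.66, 6.05 and 5.54 CPM in foot and 32.0, 24.2 and 34.9 CPM in forelimb (log2 difference -2.18, SE 0.19, adjusted p = 1.6e-05). The autophagy gene Map1lc3a was lower (log2 difference -0.93, SE 0.07, adjusted p = 7.2e-06). Capn3, the muscle calpain, was lower (log2 difference -1.03, SE 0.09, adjusted p = 1.3e-05), and Foxo3, a driver of atrophy genes, was lower (log2 difference -0.87, SE 0.09, adjusted p = 4.7e-05), whereas Foxo1 was not called (log2 difference -0.15, SE 0.09, adjusted p = 0.19). Of 16 tested imprinted genes of growth 5 were higher, 8 lower and 3 not called (median -0.17). Nnat was at 34.0, 52.0 and 41.7 CPM in foot and 10.4, 8.70 and 7.97 CPM in forelimb (log2 difference 2.24, SE 0.16, adjusted p = 7.3e-06). Dlk1, a secreted brake on differentiation and among the most abundant of these transcripts, was at 4952, 5088 and 5280.0 CPM in foot and 3665, 3616 and 3808 CPM in forelimb (log2 difference 0.47, SE 0.08, adjusted p = 9.8e-04), and Rtl1 was lower (log2 difference -1.25, SE 0.09, adjusted p = 6.5e-06).

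Called genes differed in the length and base composition of their transcripts. The median transcript of genes higher in foot was 2574 bases long with 53.7% G and C, that of genes lower in foot 3826 bases with 48.2%, and that of genes not called 3013 bases with 50.3%. At P3 the medians were 2723 bases for genes higher in foot, 3619 bases for genes lower, and 2952 bases for the rest. By chromosome, 38.3% of tested genes on chromosome 7 were higher in foot and 19.6% lower, against 21.6% and 36.5% on chromosome 1. The part of length, composition or RNA quality in the differences was not tested.

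When each age was fitted alone, more features were called at P3 than at P0. The same test called 8947 of the 13554 features at P3 (66.0%, against 57.1% at P0), 4454 higher in foot (32.9%) and 4493 lower (33.1%). In a fit shared by both ages the order was the opposite. The fit over the 12 mouse libraries called 8729 features at P0 and 7718 at P3, and that over all 24 libraries 8462 and 7476. The ages share no library, but the labels of P0 libraries mention trimmed reads and those of P3 libraries raw original reads, so age and that step cannot be told apart. Of the 3817 genes higher in foot at P0, 2456 were also higher at P3 (64.3%), 242 were lower and 1119 not called. Of the 3926 genes lower in foot at P0, 2725 were also lower at P3 (69.4%), 309 higher and 892 not called. A direct test of the difference between the limb differences, P0 minus P3 over the 12 mouse libraries, called 4893 features (36.1%), 2213 of them above 0 (16.3%) and 2680 below 0 (19.8%). Genes chosen for being called at P0 tend to be smaller in any second measurement, and their medians, 0.54 at P0 and 0.28 at P3 for those higher and -0.63 and -0.37 for those lower, are given as a description.

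The shares of the myosins differed between P0 and P3 in both limbs. In the P3 foot libraries Myh3 made up 28.4%, 28.3% and 27.9% and Myh8 56.5%, 56.6% and 56.3%, and in the P3 forelimb libraries Myh3 made up 6.85%, 7.33% and 7.55% and Myh8 62.3%, 60.4% and 58.4%. The mean shares of Myh3 and Myh8 in foot at P3, 28.2% and 56.5%, lay near those of forelimb at P0, 28.6% and 60.4%, a likeness that was not tested. In forelimb the mean share of Myh8 was 60.4% at both ages. The mean shares of Myh1 and Myh2 there were 0.975% and 1.84% at P0 and 15.5% and 8.60% at P3. In foot they were 0.433% and 0.634% at P0 and 3.05% and 3.95% at P3. Myh3, which was not called at P0, was higher in foot at P3 (log2 difference 1.49 at P3, SE 0.05, adjusted p = 4.3e-09), and the change between ages was called (P0 minus P3 -1.47, SE 0.14, adjusted p = 6.9e-06). Myh8 was lower by less at P3 (log2 difference -0.57 at P3, SE 0.06, adjusted p = 8.7e-06, P0 minus P3 -1.62, SE 0.20, adjusted p = 4.1e-05). Of the 22 fast isoforms all were again lower in foot at P3 (median -1.04), and the change between ages was called in 9 of them, each with a larger deficit at P0. Pvalb changed in that way (log2 difference -4.87 at P3, SE 0.09, adjusted p = 1.1e-10, P0 minus P3 -1.62, SE 0.20, adjusted p = 5.4e-05). Mybpc2 was not called for a change between ages (log2 difference -5.09 at P3, SE 0.09, adjusted p = 8.5e-11, P0 minus P3 -0.16, SE 0.23, adjusted p = 0.62).

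The triad and glycogen lists had similar counts at P3, more genes were called lower in the fat list and higher in the cell cycle list, and some genes crossed over. Triad genes were lower in 38 of 45 at P3 (median -0.60), with the change between ages called in 24, of which 20 had the lower difference at P0. The list of glycogen use and glycolysis, with its creatine and AMP genes, was lower in 35 of 43 (median -0.62). The change between ages was called in 27 of its features, of which 24 had the lower difference at P0. Ckmt2 was less far down (log2 difference -2.76 at P3, SE 0.06, adjusted p = 2.5e-10, P0 minus P3 -1.72, SE 0.19, adjusted p = 2.2e-05). Fat genes were lower in 44 of 51 at P3 (median -0.91), and Fabp3, the fatty acid carrier of muscle, was among those that were lower at P3 alone by the calls (log2 difference -1.42 at P3, SE 0.05, adjusted p = 5.2e-09, P0 minus P3 1.5, SE 0.20, adjusted p = 8.1e-05). Cell cycle genes were higher in 42 of 44 at P3 (median 0.45). Ankrd1 and Hmox1, higher in foot at P0, were at 0.06 and -0.23 at P3 (P0 minus P3 2.02, SE 0.45, adjusted p = 0.0033 for Ankrd1 and P0 minus P3 1.69, SE 0.13, adjusted p = 1.3e-06 for Hmox1). Lgr6 was higher in foot at P0 and lower at P3 (log2 difference -1.30 at P3, SE 0.10, adjusted p = 1.0e-06, P0 minus P3 3.98, SE 0.17, adjusted p = 1.6e-08), as was Ankrd2 (log2 difference -0.69 at P3, SE 0.27, adjusted p = 0.04, P0 minus P3 2.43, SE 0.35, adjusted p = 1.5e-04). The myelin gene Mbp crossed in the same direction (log2 difference -2.68 at P3, SE 0.17, adjusted p = 2.0e-07, P0 minus P3 3.71, SE 0.36, adjusted p = 6.0e-06). Of the limb regulators, Tbx4 was higher at P3 as well (log2 difference 1.84 at P3, SE 0.09, adjusted p = 3.3e-08), with no call for a change between ages (P0 minus P3 -0.04, SE 0.12, adjusted p = 0.85). The same held for the retinoid carrier Crabp2 (log2 difference 3.02 at P3, SE 0.11, adjusted p = 5.2e-09, P0 minus P3 0.23, SE 0.22, adjusted p = 0.45). Chad and Spp1 were higher in foot at both ages, by less at P3 (P0 minus P3 2.13, SE 0.20, adjusted p = 5.7e-06 and P0 minus P3 2.37, SE 0.55, adjusted p = 0.0044).

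**Figure D5:**
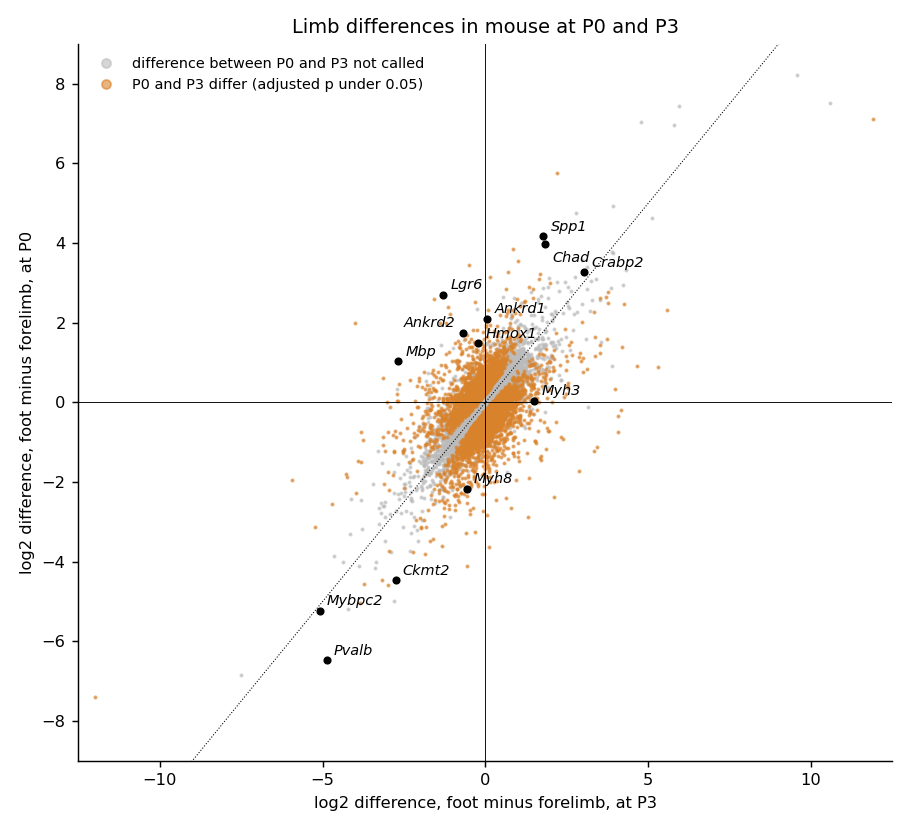
The log2 difference between foot and forelimb at P0 (vertical axis) is plotted against that at P3 (horizontal axis) for each of the 13554 tested features; orange points are the 4893 whose differences at the ages differ, and the dotted line marks equal differences. Myh3 is near 0 at P0 and at 1.49 at P3, Lgr6 is above 0 at P0 and below 0 at P3, and values beyond about 7 on either axis rest on a limb with few or no reads.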

How the data were processed

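RNA was measured by RNA sequencing of total RNA. Reads were aligned and counted with STAR, per the submitters' processing notes; no source used here gives its version, the genome build, the annotation or the library protocol. Each deposited table holds whole-number counts per transcript id in 3 columns, for either strand and for each strand; the authors state no normalization, and the last column was used because it held 98.38% to 98.54% of the strand-assigned reads. Symbols, lengths, coordinates and sequences came from GENCODE M21 (GRCm38), which paired 17529 of the 17641 ids with a symbol and is not known to be the annotation behind the counts.

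Counts were tested in R 4.3.3 with edgeR 4.0.16 (glmQLFit, glmQLFTest, TMM scaling) on features with at least 10 reads in 3 of the 6 P0 libraries, with no covariate, over the 6 libraries of an age or the 12 mouse libraries for the difference between ages. Benjamini-Hochberg adjustment ran over all 13554 features, and the threshold was 0.05. The P3 libraries held 34.1 M to 54.7 M reads. DESeq2 1.42.0, limma 3.58.1 (voom), other scalings, filters, samples in the fit and each library left out were alternatives. The scripts were tested on simulated data. Intervals are exact and cover counting error only. Isoform shares are reads divided by transcript length, as a percent of the family. Shared stretches are identical runs of 50 coding bases.

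The genes described, and their lists, were chosen with earlier results of these data known. The named genes are the 15 largest increases and the 15 largest decreases among called genes with a mean of at least 10 CPM in a limb and no overlap, and members of the lists, starting from the smallest p in each direction. Genes on the Y chromosome and the mitochondrial genome were not analysed here, and some list members are not reported here.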

Additional observations from a re-analysis of the deposited data

Results flagged for a closer look

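The limb difference at P0 was tested against that at P3 in edgeR over the 12 mouse libraries, and 4893 of the 13554 features passed at an adjusted p under 0.05, 36.1% of those tested. Among the genes described above, the log2 difference at P0 minus that at P3 was 3.98 for Lgr6 and 3.71 for Mbp, for which the foot was lower at P3. It was 2.43 for Ankrd2, 2.02 for Ankrd1 and 1.69 for Hmox1, all higher in foot at P0. For Spp1 and Chad it was 2.37 and 2.13, and for Fabp3 1.5. It was negative for Pvalb (-1.62), Ckmt2 (-1.72), Myh8 (-1.62) and Myh3 (-1.47). Age and the read trimming named in the labels cannot be told apart.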

How the results depend on the processing

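The P0 count of 7743 genes lay between 7298 and 8729 under the other scalings, filters, tests, strand column and sets of libraries in the fit, and between 6515 and 8205 with a library left out. The P3 count lay between 7476 and 9152 under those settings, lowest in the fit over all 24 libraries. With a library left out it lay between 8050 and 8502, and the count for the difference between ages between 4145 and 5893. Testing against a change of 1.5-fold left 1778 genes at P0, 1821 at P3 and 566 for the difference between ages, by construction of that test. Whether replicate numbers pair the libraries cannot be decided from so few libraries. Deviations from the group mean correlated at 0.19, 0.10 and 0.05 between same-numbered foot and forelimb libraries. Between libraries of other numbers they correlated at -0.14 to 0.10, and libraries numbered 3 correlated better with other numbers. With the replicate number as a block the counts were 7980, 8926 and 5114. In that fit Cav3 and Mstn were called lower and Tnni1 higher at P0 (adjusted p = 0.0098, 0.022 and 0.047 in edgeR). For the 291 genes described, 3190 values under 11 alternatives other than a library left out were compared with the main fit. Of these, 3092 were again called in the same direction or again not called. Another 82 lost the call, most under the 1.5-fold test, and 16 gained it. With a library left out, 1720 of 1746 values were the same in that sense, 19 lost the call and 7 gained it. In both sets 0 values were called in the opposite direction, and the direction of values without a call was not compared. Bone markers that were higher numbered 2 in place of 5 with at least 50 reads in 3 libraries. Myosin shares without division by length kept their direction. The foot libraries were less deep than the forelimb libraries, and a gene under 0.123 CPM could be missed in the shallowest.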

Other observations

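Some genes outside the lists, chosen after their values were seen, are given as values with no explanation. Zbtb16, a zinc finger factor, was at 4.45, 4.62 and 3.32 CPM in foot and 44.3, 17.5 and 52.6 CPM in forelimb (log2 difference -3.21, SE 0.37, adjusted p = 8.4e-05 in edgeR), and Klf9, a target of glucocorticoid and thyroid hormone, at 9.18, 8.94 and 8.32 CPM in foot and 61.8, 47.5 and 57.4 CPM in forelimb (log2 difference -2.66, SE 0.11, adjusted p = 5.7e-07 in edgeR). Dio2, which activates thyroid hormone, was at 1.40, 1.61 and 2.14 CPM in foot and 9.40, 8.38 and 10.4 CPM in forelimb (log2 difference -2.45, SE 0.18, adjusted p = 7.2e-06 in edgeR). For each of these 3 genes the libraries of the limbs did not overlap.

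Smco1 had 2 reads over the foot libraries and 113 over the forelimb libraries, a ratio of forelimb to foot of 42.4 with a 95% counting interval of 11.5 to 355. It passed the read minimum through the forelimb alone, so the interval is a description. Igf2, an abundant growth factor gene of newborn tissue, was listed at 0, 0 and 0 reads in foot and 3, 0 and 2 in forelimb.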
